A study of Rattus norvegicus with 12 samples.

Results

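The genes described are those with solute carrier (Slc) symbols that were expressed in rat cardiac progenitor cells, followed across cells plated on fibronectin, cells plated on laminin, cells plated without coating and cells in suspension. A gene was a member if its symbol was Slc followed by a digit, if it was annotated as protein-coding in rat, and if its mean level over all 12 libraries was at least 2 CPM (counts scaled to a common library total). Slc2a1 and Slc7a11 were left out. Because the rule works on symbols, it also took in Slc4a1ap and Slc7a6os, which are not themselves carriers. Their symbols name an adaptor protein and a gene on the strand opposite Slc7a6. The rule kept 162 of 16924 genes in the files. A further 177 protein-coding Slc genes lay under the minimum, and 50 of these had no count in any library. The members just inside the minimum were Slc37a1 at 2.05 CPM, Slc12a5 at 2.27 CPM, Slc16a11 at 2.63 CPM and Slc27a3 at 2.73 CPM. Just outside it were Slc51a at 1.92 CPM, Slc25a2 at 1.88 CPM, Slc45a1 at 1.84 CPM and Slc45a3 at 1.71 CPM. The members were thus chosen by their mean level over all libraries. No test between groups entered the choice, but a gene that was low in a group could pass through the others: in suspension 2 members, Slc2a9 and Slc37a1, averaged under 2 CPM, and on laminin 1 did, Slc37a1.

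Solute carriers are membrane proteins that move nutrients, ions, metabolites and metals across the plasma membrane and the membranes of mitochondria, lysosomes and the Golgi apparatus. Many work as exchangers or use the sodium, proton or chloride gradient, so that uptake of one solute is tied to the movement of another. In cells that detach from or attach to a surface, uptake of sugars and amino acids feeds growth signalling, and sodium, proton, chloride and bicarbonate carriers set cell volume and internal pH.

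All cells derive from a single rat cardiac progenitor clone, grown in F12 medium with 10% fetal bovine serum, leukemia inhibitory factor at 10 µg/L, basic fibroblast growth factor at 10 ng/mL, erythropoietin at 5 U/L and glutathione at 0.2 mM. Each of the 4 groups (fibronectin, laminin, no coating and suspension) had 3 libraries. Plated cells were seeded sparsely and kept for 2 h with 0.1% serum, and the labels attach the same protocol to the suspension libraries without saying how those cells were held. Each library carries a batch that equals its replicate number, so the libraries of a number form a set of 4. Nothing in the labels ties the libraries to separate animals, and p-values therefore measure the spread between batches of 1 clone.

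The libraries held between 15875160 and 20852160 counts. The members took 1.36% to 1.41% of the counts on fibronectin, 1.39% to 1.46% on laminin, 1.38% to 1.46% without coating and 1.35% to 1.37% in suspension. The first principal component was taken over all 10020 genes kept for testing, not over the members alone, and held 56.1% of the variance. On it the suspension libraries lay between -30.8 and -27.8 and the plated libraries of batches 1 and 2 between -7.04 and 1.46. The 3 plated libraries of batch 3 stood apart at 20.8 for fibronectin, 35.0 for laminin and 41.9 for no coating, and results are therefore also given without batch 3. Of the cardiac progenitor markers, Gata4 averaged 88.4 CPM and Kit 3.09 CPM, Tbx5 had 1 count in all, Nkx2-5 and Isl1 had none, and Mef2c was not analysed here. The 5 cardiomyocyte markers summed to 3.92 to 5.60 CPM on fibronectin, 5.08 to 5.83 CPM on laminin, 4.77 to 6.32 CPM without coating and 1.57 to 2.05 CPM in suspension. Nearly all of that sum was Tnnt2, which was called higher on every surface, while Myh7 had no count. The 5 blood markers summed to 56.1 to 63.4 CPM on fibronectin, 58.3 to 65.3 CPM on laminin, 50.7 to 59.2 CPM without coating and 35.8 to 38.4 CPM in suspension. Cd14 made up most of that sum, and the pan-leukocyte gene Ptprc had 3 counts in all. The 5 mesenchyme and fibroblast markers summed to 6884 to 7011 CPM on fibronectin, 6671 to 7186 CPM on laminin, 6582 to 7091 CPM without coating and 5901 to 6706 CPM in suspension. Of the 4 tested, Vim and Pdgfrb were called higher on fibronectin and laminin, and Pdgfrb without coating. The smooth muscle markers, without Acta2, which was not analysed here, summed to 180.2 to 217 CPM on fibronectin, 198.8 to 226.6 CPM on laminin, 197.4 to 206.5 CPM without coating and 164.4 to 224.5 CPM in suspension, and of the 2 tested Myh11 was called lower on laminin. The endothelium markers, without Kdr, which was not analysed here, were nearly all Flt1, which was not called. They summed to 101.4 to 141.3 CPM on fibronectin, 106 to 142.3 CPM on laminin, 108.3 to 144.3 CPM without coating and 99.7 to 183 CPM in suspension. The sums of the cardiomyocyte and blood markers did not overlap between plated and suspension libraries. Those of the mesenchyme and fibroblast markers overlapped on laminin and without coating, and those of the smooth muscle and endothelium markers on every surface. The part of all these markers in the results below was not tested.

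Relative to suspension, 20 members passed the test on fibronectin, 34 on laminin and 22 without coating (edgeR quasi-likelihood test on the counts, Benjamini-Hochberg adjusted over 10020 genes, adjusted p under 0.05, here named a call). This test held no batch term and so did not use the pairing of the libraries. With the batch as a block, which uses it, 44, 70 and 59 members passed, as detailed below. On fibronectin 11 rose and 9 fell, where 6.61% of all genes were called higher and 3.06% lower. On laminin 18 rose and 16 fell, where 12.1% of all genes were called higher and 6.96% lower. Without coating 14 rose and 8 fell, where 8.48% of all genes were called higher and 4.1% lower, and with scaling by library size alone 8 rose and 9 fell. The called members made up 12.35% of the family on fibronectin, where 9.67% of all genes were called, 20.99% on laminin, where 19.0% were, and 13.58% without coating, where 12.6% were. The 3 comparisons share the suspension libraries, so each is given with its own values. In this test without a batch term, 36 members were called at least once and 126 never, and no member was called in opposite directions. The matching counts over all genes were not made, so these are a description of the members only. All 76 calls had the same direction in the 3 batches, which passing a test on 3 libraries per group makes likely, so it adds no support.

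The median log2 fold change of the 162 members was -0.03 on fibronectin, -0.01 on laminin and 0.01 without coating, against 0.00, -0.01 and 0.00 over all genes tested. The median absolute log2 fold change was 0.16, 0.20 and 0.19, against 0.19, 0.24 and 0.22 over all genes. The called members that changed at least 2-fold were Slc2a9 and Slc2a5 on fibronectin, Slc2a9, Slc2a5 and Slc43a2 on laminin, and Slc2a9 and Slc17a6 without coating. Among the 10020 genes tested, 180, 247 and 229 were called with a change of at least 2-fold. Slc2a9 averaged under the minimum of 2 CPM in suspension. Because these are bulk libraries, fewer cells of a type and less RNA per cell cannot be told apart. With the batch as a block, 44 members (24 higher, 20 lower) were called on fibronectin against 28.7% of all genes, 70 (34 higher, 36 lower) on laminin against 43.2%, and 59 (30 higher, 29 lower) without coating against 38.8%, and every unblocked call was kept. Without batch 3, 17 members were called on fibronectin (9.25% of all genes), 26 on laminin (18.9%) and 14 without coating (12%), and 15, 20 and 9 of the calls above were among them. The calls of 8 members on fibronectin, 13 on laminin and 5 without coating held in every setting tried. The matching share over all genes was not counted. The other calls are named below with the libraries they needed, from fits that also held no batch term.

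**Figure D1:**
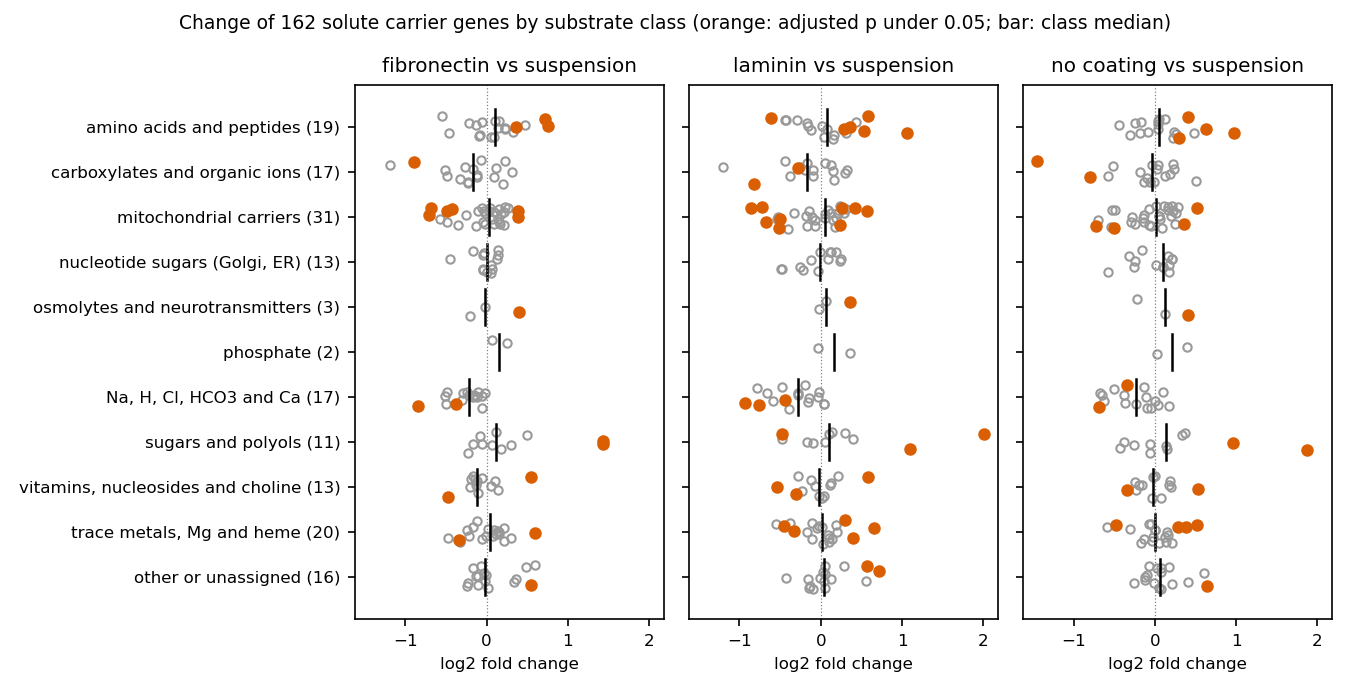
Log2 fold change (x axis) of each of the 162 solute carrier genes relative to suspension, in 11 substrate classes (y axis, number of genes in parentheses), with 1 panel per surface. Orange points passed the test (adjusted p under 0.05), open points did not, and black bars are class medians; Slc2a9 is the point farthest to the right on laminin, at 2.01.

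The carriers of amino acids and peptides numbered 19. On fibronectin 3 rose and none fell, on laminin 5 rose and 1 fell, and without coating 4 rose and none fell. These calls made up 15.79%, 31.58% and 21.05% of the class, against 9.67%, 19.0% and 12.6% of all genes. With the block, 6 rose and 3 fell on fibronectin, 6 rose and 4 fell on laminin, and 6 rose and 1 fell without coating, where 28.7%, 43.2% and 38.8% of all genes were called. The class medians were 0.11 on fibronectin, 0.08 on laminin and 0.05 without coating on the log2 scale. Slc1a4, a sodium-dependent exchanger of alanine, serine and cysteine, had 207, 195 and 200 CPM on fibronectin, 176, 186 and 189 CPM on laminin, 177, 185 and 207 CPM without coating, and 124, 119 and 124 CPM in suspension, in the order of batches 1 to 3 and scaled by TMM, as all levels below. Every plated library lay above every suspension library. The log2 fold changes were 0.71 ± 0.07 (SE) on fibronectin, 0.59 ± 0.07 on laminin and 0.63 ± 0.07 without coating (n = 3 per group, edgeR adjusted p = 0.000128, 0.00037 and 0.000243), and these calls held in every setting.

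Slc43a2, a facilitated carrier of leucine, phenylalanine and other large neutral amino acids, had 29.5, 22.8 and 26.0 CPM on fibronectin, 36.6, 26.9 and 33.4 CPM on laminin, 34.7, 25.7 and 30.5 CPM without coating, and 18.4, 14.2 and 13.6 CPM in suspension. Batch 2 was the lowest plated library on each surface, and no plated library overlapped suspension. The rise was 0.76 ± 0.17 on fibronectin, 1.07 ± 0.17 on laminin and 0.98 ± 0.17 without coating (edgeR adjusted p = 0.0169, 0.00199 and 0.00405). The fibronectin call ended without batch 3 (0.68, adjusted p = 0.0877) and without fibronectin 1, fibronectin 3, suspension 2 or suspension 3 (adjusted p up to 0.081).

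The large neutral amino acid exchanger of the plasma membrane is a heteromer of the heavy chain Slc3a2 and a light chain, most often Slc7a5. Slc7a5 averaged 268 ± 18.8 CPM on fibronectin, 273 ± 27.9 CPM on laminin, 282 ± 36 CPM without coating and 213 ± 4.56 CPM in suspension (SD, n = 3 each). Slc3a2 averaged 330.5 ± 18.1 CPM on fibronectin, 344 ± 27.3 CPM on laminin, 347 ± 31.0 CPM without coating and 282 ± 14.4 CPM in suspension. For both genes the 9 plated libraries lay above the 3 suspension libraries. Slc7a5 rose by 0.36 ± 0.10 on laminin and 0.40 ± 0.10 without coating (edgeR adjusted p = 0.0356 and 0.0281), and Slc3a2 by 0.29 ± 0.09 and 0.30 ± 0.09 (adjusted p = 0.0413 and 0.0445). On fibronectin Slc7a5 was at 0.33 ± 0.10 (adjusted p = 0.068, and 0.00783 with the batch as a block) and Slc3a2 at 0.23 ± 0.09 (adjusted p = 0.116, and 0.0141 with the block). All 4 calls ended without plated library 2, plated library 3 or any suspension library (adjusted p up to 0.16), and those of Slc3a2 also without batch 3.

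The other tested light chains were not called higher on any surface. Slc7a6, which exchanges cationic for neutral amino acids, averaged 150.2 ± 11.6 CPM on fibronectin, 142 ± 13.8 CPM on laminin, 154 ± 16.9 CPM without coating and 174 ± 15.3 CPM in suspension, and its call was made only with the block, on fibronectin (-0.21 ± 0.11, edgeR adjusted p = 0.235, and 0.0452 with the block) and on laminin (-0.29 ± 0.11, adjusted p = 0.0794, and 0.00925 with the block). Its reads may be mixed with those of the overlapping Slc7a6os, since the strand setting of the counting is not given in the sources used here. Slc7a7 averaged 19.7 ± 2.153 CPM on fibronectin, 18.4 ± 0.956 CPM on laminin, 19.2 ± 1.37 CPM without coating and 20.45 ± 3.08 CPM in suspension, and was not called.

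Slc6a9, a sodium- and chloride-coupled glycine carrier, averaged 60.6 ± 5.33 CPM on fibronectin, 63 ± 9.81 CPM on laminin, 60.7 ± 7.97 CPM without coating and 43.6 ± 6.08 CPM in suspension. It rose on laminin by 0.53 ± 0.14 (edgeR adjusted p = 0.0279). That call ended without batch 3 (adjusted p = 0.0739) and without laminin 3, suspension 2 or suspension 3 (adjusted p up to 0.1). On fibronectin and without coating it was at 0.48 ± 0.14 each (adjusted p = 0.0603 and 0.0519, and 0.00643 and 0.00519 with the block).

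Slc38a2, a sodium-coupled carrier of small neutral amino acids, had 1157, 1177 and 1031 CPM on fibronectin, 973, 934 and 859 CPM on laminin, 973, 934 and 779 CPM without coating, and 856, 861 and 904 CPM in suspension. The fibronectin libraries lay above all others, and the laminin and uncoated libraries overlapped suspension. It rose on fibronectin by 0.36 ± 0.09 (edgeR adjusted p = 0.0313), a call that ended without fibronectin 1, fibronectin 2 or any suspension library (adjusted p up to 0.1) but not without batch 3 (0.44, adjusted p = 0.00456). Slc38a6, an orphan relative of the same family, had 4.05, 3.69 and 3.26 CPM on laminin against 6.58, 4.88 and 5.43 CPM in suspension. It fell on laminin by 0.62 on the log2 scale (SE 0.15, edgeR adjusted p = 0.0168), a call that ended without batch 3 (adjusted p = 0.0718), laminin 3 or suspension 1, and it was not called on the other surfaces.

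Slc49a4, a lysosomal membrane carrier grouped here with carriers of other or unassigned substrate, had 70.3, 61.6 and 70.3 CPM on fibronectin, 75.0, 71.7 and 80.8 CPM on laminin, 73.4, 67.1 and 75.5 CPM without coating, and 47.4, 43.9 and 47.3 CPM in suspension. No plated library overlapped suspension. It rose by 0.55 ± 0.08 on fibronectin, 0.72 ± 0.08 on laminin and 0.64 ± 0.08 without coating (edgeR adjusted p = 0.00232, 0.000302 and 0.000695), and these calls held in every setting.

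Promoters of members that rose are shown to let a reader see which of them carry a pair of short motifs. The first, TGATGNAA, is the composite element bound by dimers of Atf4 and C/EBP proteins, and the second, CACGTG, is the E-box bound by Myc and by Tfeb and Tfe3. Each sequence runs from 250 bases before to 50 bases after the annotated start in RefSeq (GRCr8), 5′ to 3′ on the gene's strand, with motif matches on either strand in capitals.
Slc1a4 (chr14:98761513-98761812, minus strand): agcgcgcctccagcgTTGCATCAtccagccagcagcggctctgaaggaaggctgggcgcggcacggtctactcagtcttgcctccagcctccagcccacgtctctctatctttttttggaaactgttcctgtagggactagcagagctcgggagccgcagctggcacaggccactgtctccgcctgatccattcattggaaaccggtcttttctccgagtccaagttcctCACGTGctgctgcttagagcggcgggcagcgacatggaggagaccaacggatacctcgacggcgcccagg
Slc49a4 (chr11:78500710-78501009, plus strand): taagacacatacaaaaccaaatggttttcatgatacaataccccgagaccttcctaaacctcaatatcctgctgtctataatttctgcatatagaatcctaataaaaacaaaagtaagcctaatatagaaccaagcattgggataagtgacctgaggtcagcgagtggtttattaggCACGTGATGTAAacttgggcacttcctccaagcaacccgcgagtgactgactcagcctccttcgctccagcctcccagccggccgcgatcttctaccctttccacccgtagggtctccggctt
Slc7a5 (chr19:66872363-66872662, minus strand): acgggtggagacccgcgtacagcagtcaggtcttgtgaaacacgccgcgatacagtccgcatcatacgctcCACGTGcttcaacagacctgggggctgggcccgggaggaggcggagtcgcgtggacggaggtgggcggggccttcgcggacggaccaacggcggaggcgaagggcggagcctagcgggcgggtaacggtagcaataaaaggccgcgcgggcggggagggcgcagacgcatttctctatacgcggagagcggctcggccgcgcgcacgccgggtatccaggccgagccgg
Slc3a2 (chr1:215048015-215048314, minus strand): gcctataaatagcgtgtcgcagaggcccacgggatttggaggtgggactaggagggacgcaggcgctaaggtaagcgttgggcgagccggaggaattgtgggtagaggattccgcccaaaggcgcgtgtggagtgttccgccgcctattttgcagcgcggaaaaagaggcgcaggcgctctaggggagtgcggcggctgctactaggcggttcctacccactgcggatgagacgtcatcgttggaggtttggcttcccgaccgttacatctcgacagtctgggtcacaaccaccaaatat

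In Slc1a4 the first motif begins at -235 and the second at -20 from the start. In Slc49a4 they begin at -69 and -73, so that they overlap and print as a single run of capitals. Slc7a5 holds the second motif only, at -179, and neither set of letters is in these windows of Slc3a2, Slc43a2 or Slc2a9. RefSeq promoters were matched for 129 of the 162 members. TGATGNAA was in 5 of them (3.88%), against 2.02% of the 8226 matched promoters of genes tested and 3.82% of all 27457. CACGTG was in 18 (13.95%), against 9.69% of the tested and 6.65% of all. Of the 31 called members with a promoter, 2 held the first motif and 7 the second (Slc1a4, Slc25a33, Slc29a2, Slc31a2, Slc49a4, Slc7a5 and Slc9a5), and some of these rose while others fell.

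Among the 11 carriers of sugars and polyols, 2 rose and none fell on fibronectin, 2 rose and 1 fell on laminin, and 2 rose and none fell without coating. These calls made up 18.18%, 27.27% and 18.18% of the class, against 9.67%, 19.0% and 12.6% of all genes. With the block, 3 rose and none fell on fibronectin, and 2 rose and 2 fell on laminin and without coating alike, where 28.7%, 43.2% and 38.8% of all genes were called. Slc2a9, a carrier of urate and glucose, had 3.24, 2.95 and 3.63 CPM on fibronectin, 5.5, 4.26 and 4.94 CPM on laminin, 4.76, 4.16 and 4.46 CPM without coating, and 1.23, 1.12 and 1.27 CPM in suspension. No plated library overlapped suspension, and the fibronectin libraries lay below all laminin and uncoated libraries. Its rise was 2.70-fold on fibronectin (log2 1.43 ± 0.16), 4.02-fold on laminin (2.01 ± 0.15) and 3.68-fold without coating (1.88 ± 0.15), with edgeR adjusted p = 0.000249, 1.24e-05 and 2.53e-05. The calls held in every setting. Slc2a9 passed the minimum of 2 CPM only through its plated libraries, so the direction of its change was partly fixed by the choice of members, and its values are a description.

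Slc2a5, the fructose carrier, had 4.83, 9.53 and 6.31 CPM on fibronectin, 4.17, 5.94 and 6.34 CPM on laminin, 4.0, 5.5 and 5.46 CPM without coating, and 2.64, 2.52 and 2.49 CPM in suspension. The plated libraries varied more than the suspension libraries and did not overlap them. It rose by 1.43 ± 0.26 on fibronectin, 1.1 ± 0.26 on laminin and 0.96 ± 0.27 without coating (edgeR adjusted p = 0.00631, 0.0165 and 0.0387). The call on fibronectin held in every setting. The laminin call ended without batch 3, laminin 3, suspension 2 or suspension 3 (adjusted p up to 0.0874), and the call without coating ended without batch 3, no coating 2, no coating 3 or any suspension library (up to 0.157).

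Slc2a3, a high-affinity glucose carrier, had 28.3, 25.1 and 25.9 CPM on laminin against 30.7, 42.5 and 36.8 CPM in suspension. It fell on laminin by 0.47 on the log2 scale (SE 0.13, edgeR adjusted p = 0.0324), a call that ended without batch 3, laminin 2, laminin 3, suspension 2 or suspension 3 (adjusted p up to 0.12). It was at -0.22 ± 0.13 on fibronectin and -0.37 ± 0.13 without coating (adjusted p = 0.307 and 0.0865, the second 0.0479 with the block). The member of this class with the highest mean CPM was Slc37a4, the glucose-6-phosphate carrier of the endoplasmic reticulum, with 51 ± 1.88 CPM on fibronectin, 51.7 ± 2.43 CPM on laminin, 51.7 ± 2.88 CPM without coating and 47 ± 5.28 CPM in suspension, and it was not called.

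**Figure D2:**
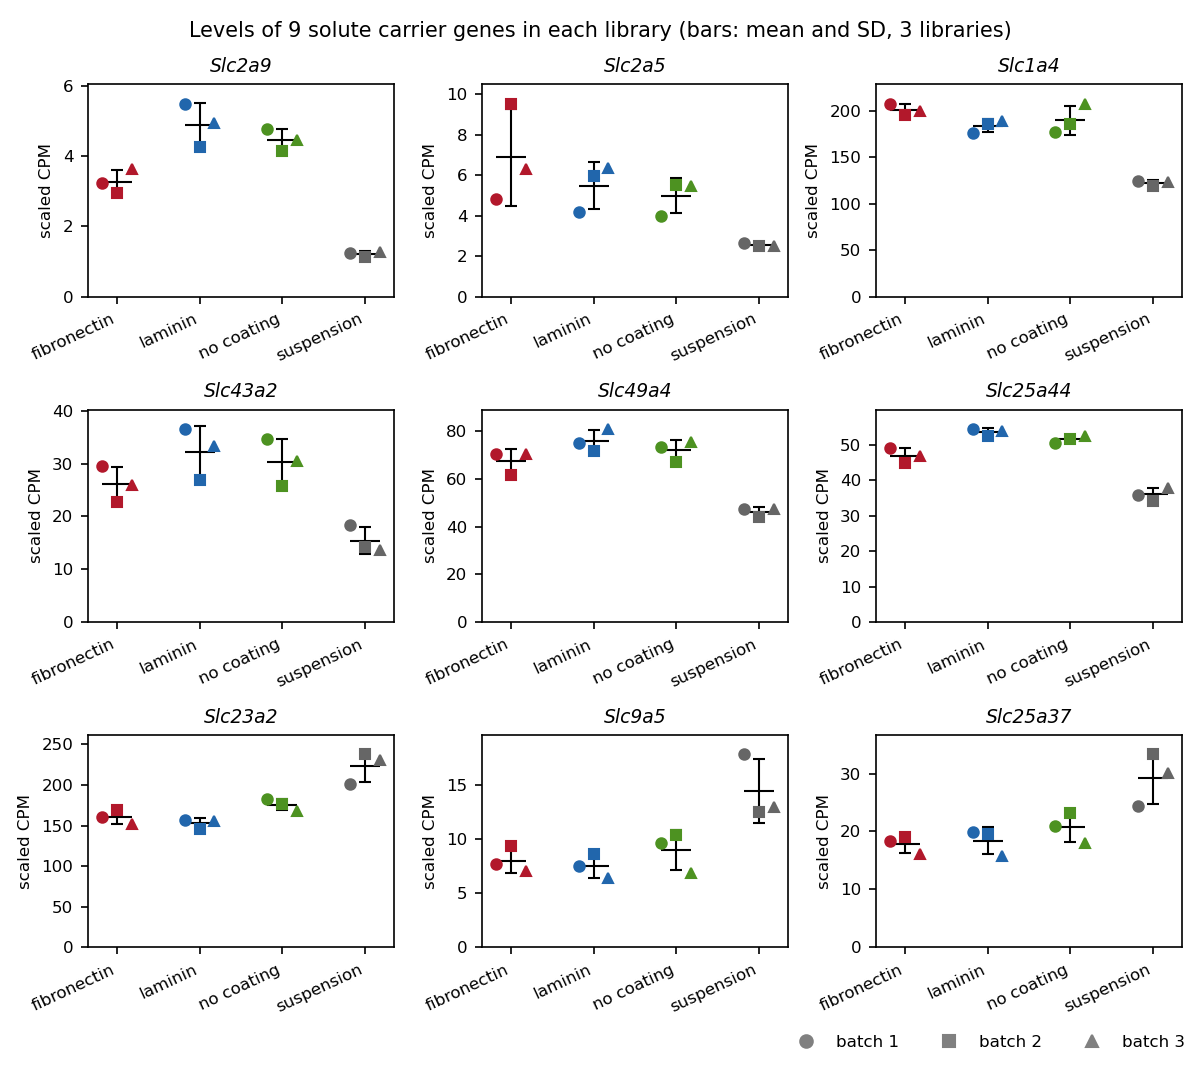
TMM-scaled CPM (y axis, linear, from 0) of 9 solute carrier genes in each of the 12 libraries, by group (x axis), with symbols for batches 1 to 3 and bars for the mean and SD of 3 libraries. Slc2a9, Slc2a5, Slc1a4, Slc43a2, Slc49a4 and Slc25a44 lie higher on all surfaces than in suspension, and Slc23a2, Slc9a5 and Slc25a37 lie lower.

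The mitochondrial carriers, with the related Slc25 carriers of other organelles, were the largest class, with 31 members. On fibronectin 2 rose and 4 fell, on laminin 4 rose and 5 fell, and without coating 2 rose and 2 fell. These calls made up 19.35%, 29.03% and 12.9% of the class, against 9.67%, 19.0% and 12.6% of all genes. With the block, 6 rose and 5 fell on fibronectin, 9 rose and 8 fell on laminin, and 8 rose and 8 fell without coating, where 28.7%, 43.2% and 38.8% of all genes were called. The class medians were 0.02 on fibronectin, 0.06 on laminin and 0.02 without coating. Slc25a44, which brings branched-chain amino acids into mitochondria, had 49.1, 45.0 and 46.8 CPM on fibronectin, 54.4, 52.4 and 53.9 CPM on laminin, 50.6, 51.7 and 52.5 CPM without coating, and 36.0, 34.2 and 37.8 CPM in suspension. It rose by 0.38 ± 0.07 on fibronectin, 0.57 ± 0.07 on laminin and 0.52 ± 0.07 without coating (edgeR adjusted p = 0.00558, 0.000343 and 0.000707), and these calls held in every setting.

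The carriers of glutamate and ornithine lay on the other side. Slc25a22, the mitochondrial glutamate carrier, had 27.9, 31.3 and 29.2 CPM on fibronectin, 27.1, 29.9 and 30.2 CPM on laminin, 30.1, 36.4 and 35.2 CPM without coating, and 39.1, 44.5 and 40.1 CPM in suspension. It fell by 0.49 on the log2 scale on fibronectin and by 0.50 on laminin (SE 0.09 each, edgeR adjusted p = 0.00995 and 0.00585), in every setting. Without coating it was at -0.28 ± 0.09 (adjusted p = 0.0718, and 0.00817 with the block). Slc25a15, the ornithine carrier of the urea cycle, averaged 23.6 ± 2.01 CPM on fibronectin, 22.1 ± 2.13 CPM on laminin, 25.7 ± 2.95 CPM without coating and 31.5 ± 1.42 CPM in suspension. Its fall was 0.51 on laminin (SE 0.11, adjusted p = 0.0105), in every setting, and 0.42 on fibronectin (SE 0.11, adjusted p = 0.0345). The fibronectin call ended without batch 3, fibronectin 1, fibronectin 3 or any suspension library (adjusted p up to 0.13). It was at -0.29 without coating (adjusted p = 0.0928, and 0.0211 with the block).

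The pair of mitochondrial iron importers moved in opposite directions. Slc25a37 (mitoferrin-1) had 18.4, 19.1 and 16.0 CPM on fibronectin, 19.9, 19.6 and 15.8 CPM on laminin, 21.0, 23.2 and 18.0 CPM without coating, and 24.4, 33.3 and 30.1 CPM in suspension. Slc25a28 (mitoferrin-2) had 68.1, 63.6 and 71.2 CPM on fibronectin, 67.1, 64.7 and 76.6 CPM on laminin, 66.2, 61.2 and 72.2 CPM without coating, and 57.4, 46.0 and 52.2 CPM in suspension. For neither gene did plated and suspension libraries overlap. Slc25a37 fell by 0.71 ± 0.14 on fibronectin, 0.67 ± 0.14 on laminin and 0.50 ± 0.14 without coating (edgeR adjusted p = 0.0115, 0.0111 and 0.0452), and Slc25a28 rose by 0.38 ± 0.10 on fibronectin, 0.42 ± 0.10 on laminin and 0.36 ± 0.10 without coating (adjusted p = 0.0418, 0.0191 and 0.0459). The Slc25a37 call on laminin held in every setting. Its call on fibronectin ended without fibronectin 3 or suspension 2, and the call without coating ended without batch 3, any uncoated library, suspension 2 or suspension 3 (adjusted p up to 0.15). All 3 Slc25a28 calls ended without batch 3, plated library 3, suspension 2 or suspension 3, and those on fibronectin and without coating also without plated library 1 or 2 (adjusted p up to 0.16).

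Slc25a27, an uncoupling protein, had 3.76, 2.83 and 3.09 CPM on laminin, 4.22, 3.52 and 2.82 CPM without coating, and 5.93, 5.44 and 6.15 CPM in suspension. It fell by 0.86 on laminin (SE 0.18, edgeR adjusted p = 0.0105), in every setting, and by 0.73 without coating (SE 0.18, adjusted p = 0.0263). The second call ended without batch 3 (adjusted p = 0.116), no coating 2, no coating 3 or any suspension library. On fibronectin it was at -0.57 ± 0.18 (adjusted p = 0.0675, and 0.025 with the block). Slc25a33, a pyrimidine nucleotide carrier, averaged 5.65 ± 0.799 CPM on fibronectin, 5.48 ± 0.888 CPM on laminin, 6.22 ± 0.813 CPM without coating and 9.07 ± 1.25 CPM in suspension. It fell by 0.68 on fibronectin and 0.72 on laminin (SE 0.17 each, adjusted p = 0.0266 and 0.0141), and was at -0.54 without coating (adjusted p = 0.0539, and 0.00756 with the block). The laminin call ended without suspension 2 or 3, and the fibronectin call without these or without fibronectin 1 or 2 (adjusted p up to 0.1).

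The adenine nucleotide translocator Slc25a4 averaged 924 ± 29.0 CPM on fibronectin, 978 ± 1.64 CPM on laminin, 923 ± 27.6 CPM without coating and 826 ± 22.9 CPM in suspension. It rose on laminin by 0.24 ± 0.05 (edgeR adjusted p = 0.0117), a call that ended without suspension 3 (adjusted p up to 0.058), and was at 0.16 ± 0.05 on fibronectin and without coating (adjusted p = 0.0776 and 0.068, and 0.0262 and 0.0214 with the block). Counts of Slc25a4, of its close relative Slc25a5 and of the family member Slc25a3 are uncertain, since they may include reads shared with similar sequences. How such reads were handled is not given in the sources used here. Slc25a17, a carrier of cofactors in the peroxisome, averaged 55 ± 3.1 CPM on laminin and 45.7 ± 0.841 CPM in suspension and rose there by 0.26 ± 0.08 (adjusted p = 0.0383), a call that ended without batch 3 or any laminin or suspension library (adjusted p up to 0.11).

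Of the 17 carriers of sodium, protons, chloride, bicarbonate and calcium none rose on any surface, and 2 fell on fibronectin, 3 on laminin and 2 without coating. These calls made up 11.76%, 17.65% and 11.76% of the class, near the 9.67%, 19.0% and 12.6% of all genes called. Only 6.61%, 12.1% and 8.48% of all genes were called higher. The class medians were -0.21, -0.28 and -0.23, the lowest of the 11 classes in each comparison. The 17 log2 fold changes lay between -0.84 and -0.01 on fibronectin, between -0.93 and 0.04 on laminin and between -0.69 and 0.17 without coating. With the block, all calls were lower, and there were 3 on fibronectin, where 28.7% of all genes were called, 8 on laminin, where 43.2% were, and 7 without coating, where 38.8% were. Slc9a5, a sodium-proton exchanger, had 7.71, 9.37 and 7.04 CPM on fibronectin, 7.58, 8.66 and 6.40 CPM on laminin, 9.69, 10.4 and 6.87 CPM without coating, and 17.9, 12.5 and 13.0 CPM in suspension. It fell by 0.84 ± 0.20 on fibronectin, 0.93 ± 0.20 on laminin and 0.69 ± 0.19 without coating (edgeR adjusted p = 0.0225, 0.0102 and 0.043). The laminin call held in every setting, the fibronectin call ended without fibronectin 1, fibronectin 3 or suspension 1, and the call without coating ended without batch 3 or any uncoated or suspension library (adjusted p up to 0.13).

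Slc12a4, a potassium-chloride cotransporter used in cell shrinkage, had 144, 132 and 127 CPM on fibronectin, 121, 126 and 137 CPM on laminin, 134, 138 and 140.3 CPM without coating, and 189, 167 and 165 CPM in suspension. It fell by 0.37 ± 0.08 on fibronectin, 0.44 ± 0.08 on laminin and 0.34 ± 0.08 without coating (edgeR adjusted p = 0.0147, 0.00443 and 0.019). The laminin call held in every setting, the fibronectin call ended without fibronectin 3, and the call without coating ended without no coating 2 or suspension 1 (adjusted p up to 0.067). Slc4a3, a chloride-bicarbonate exchanger, had 10.0, 9.34 and 9.43 CPM on laminin against 23.1, 13.8 and 11.8 CPM in suspension, where batch 1 was the highest. It fell on laminin by 0.76 (SE 0.20, adjusted p = 0.0264), a call that ended without any laminin library (adjusted p up to 0.072). Without suspension 1 the fall was 0.42 (adjusted p = 0.0293). It was at -0.51 ± 0.20 on fibronectin (adjusted p = 0.13, and 0.0586 with the block) and -0.50 ± 0.20 without coating (adjusted p = 0.118, and 0.0491 with the block). Slc4a2, the class member with the highest mean CPM, averaged 184 ± 8.93 CPM on fibronectin, 190.3 ± 19.0 CPM on laminin, 199 ± 17.2 CPM without coating and 185 ± 2.63 CPM in suspension and was not called.

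The 20 carriers of metals and heme had 1 gene rising and 1 falling on fibronectin, 3 rising and 2 falling on laminin, and 3 rising and 1 falling without coating. These calls made up 10%, 25% and 20% of the class, against 9.67%, 19.0% and 12.6% of all genes. With the block, 3 rose and 2 fell on fibronectin, 4 rose and 4 fell on laminin, and 4 rose and 3 fell without coating, where 28.7%, 43.2% and 38.8% of all genes were called. Slc31a2, a copper carrier of endosomes and lysosomes, had 16.5, 16.0 and 16.9 CPM on fibronectin, 18.4, 16.4 and 17.0 CPM on laminin, 17.4, 13.4 and 16.1 CPM without coating, and 11.3, 9.64 and 11.8 CPM in suspension. It rose by 0.59 ± 0.11 on fibronectin, 0.66 ± 0.11 on laminin and 0.52 ± 0.11 without coating (edgeR adjusted p = 0.00897, 0.00349 and 0.0152). The first 2 calls held in every setting, and the call without coating ended without batch 3, no coating 3 or suspension 2 (adjusted p up to 0.064). Slc48a1, which moves heme out of endosomes and lysosomes, averaged 71.5 ± 5.57 CPM on fibronectin, 76.9 ± 5.65 CPM on laminin, 76.3 ± 7.49 CPM without coating and 58.3 ± 2.74 CPM in suspension. It rose by 0.40 ± 0.09 on laminin and 0.39 ± 0.09 without coating (adjusted p = 0.0163 and 0.0236), and was at 0.30 ± 0.09 on fibronectin (adjusted p = 0.0726, and 0.0168 with the block). The laminin call ended without laminin 3 or suspension 3, and the other without batch 3, no coating 2, no coating 3 or any suspension library (adjusted p up to 0.099).

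The zinc importers of the Slc39 family differed among themselves. Slc39a13, of the Golgi and other internal membranes, had 283, 247 and 302 CPM on fibronectin, 239, 233 and 289 CPM on laminin, 229.7, 235 and 283 CPM without coating, and 391, 322 and 329 CPM in suspension. Its fall was 0.45 ± 0.12 on laminin and 0.48 ± 0.12 without coating (edgeR adjusted p = 0.028 and 0.0288), and it was at -0.33 ± 0.12 on fibronectin (adjusted p = 0.118, and 0.0283 with the block). Slc39a14, which also takes up iron and manganese, averaged 229 ± 20.0 CPM on fibronectin, 230 ± 21.2 CPM on laminin, 256 ± 25.4 CPM without coating and 289 ± 1.21 CPM in suspension. It fell by 0.34 ± 0.09 on fibronectin and 0.33 ± 0.09 on laminin (adjusted p = 0.0476 and 0.0326). Slc39a7, which releases zinc from the endoplasmic reticulum, averaged 224 ± 15.8 CPM on fibronectin, 238 ± 14.1 CPM on laminin, 236 ± 14.7 CPM without coating and 194 ± 8.26 CPM in suspension. It rose by 0.30 ± 0.08 on laminin and 0.29 ± 0.08 without coating (adjusted p = 0.0246 and 0.0363), and was at 0.21 ± 0.08 on fibronectin (adjusted p = 0.111, and 0.0308 with the block). The calls of these 3 genes each ended without at least 1 plated library of each comparison and without suspension 2 or suspension 3, and those of Slc39a14 and Slc39a7 also without batch 3, with adjusted p up to 0.17.

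Among the 13 carriers of vitamins, nucleosides and choline, 1 rose and 1 fell on fibronectin, 1 rose and 2 fell on laminin, and 1 rose and 1 fell without coating. These calls made up 15.38%, 23.08% and 15.38% of the class, against 9.67%, 19.0% and 12.6% of all genes. With the block, 1 rose and 1 fell on fibronectin, and 2 rose and 2 fell on laminin and without coating alike, where 28.7%, 43.2% and 38.8% of all genes were called. Slc23a2, the sodium-coupled carrier of ascorbate, had 161, 169 and 152 CPM on fibronectin, 157, 146 and 156 CPM on laminin, 183, 177 and 168 CPM without coating, and 201, 238 and 231 CPM in suspension. No plated library reached the lowest suspension library. It fell by 0.48 ± 0.08 on fibronectin, 0.54 ± 0.08 on laminin and 0.34 ± 0.08 without coating (edgeR adjusted p = 0.00351, 0.0012 and 0.0175). The calls on fibronectin and laminin held in every setting, and the call without coating ended without batch 3, no coating 2, no coating 3, suspension 2 or suspension 3 (adjusted p up to 0.077).

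Slc29a2, an equilibrative nucleoside carrier, had 18.2, 20.6 and 19.4 CPM on fibronectin, 17.4, 21.5 and 20.7 CPM on laminin, 18.2, 20.0 and 19.4 CPM without coating, and 12.8, 15.4 and 11.8 CPM in suspension. It rose by 0.54 ± 0.12 on fibronectin, 0.58 ± 0.12 on laminin and 0.53 ± 0.12 without coating (edgeR adjusted p = 0.0165, 0.00852 and 0.0161), and all 3 calls ended without batch 3 (adjusted p = 0.0855, 0.0552 and 0.0925). The calls on fibronectin and without coating also ended without suspension 1 or 3 or plated library 2, and the first without fibronectin 3. Its paralogue Slc29a1 averaged 507 ± 33.2 CPM on fibronectin, 563 ± 52.6 CPM on laminin, 560.5 ± 45.3 CPM without coating and 487 ± 32.1 CPM in suspension, and was called only with the block, on laminin (0.21 ± 0.09, adjusted p = 0.125, and 0.0214 with the block) and without coating (0.20 ± 0.09, adjusted p = 0.151, and 0.0261 with the block). Slc19a2, a thiamine carrier, had 16.6, 16.6 and 16.2 CPM on laminin against 19.6, 19.6 and 21.7 CPM in suspension and fell by 0.30 (SE 0.08, adjusted p = 0.0227), a call that ended without batch 3, any laminin library, suspension 2 or suspension 3 (adjusted p up to 0.124).

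**Figure D3:**
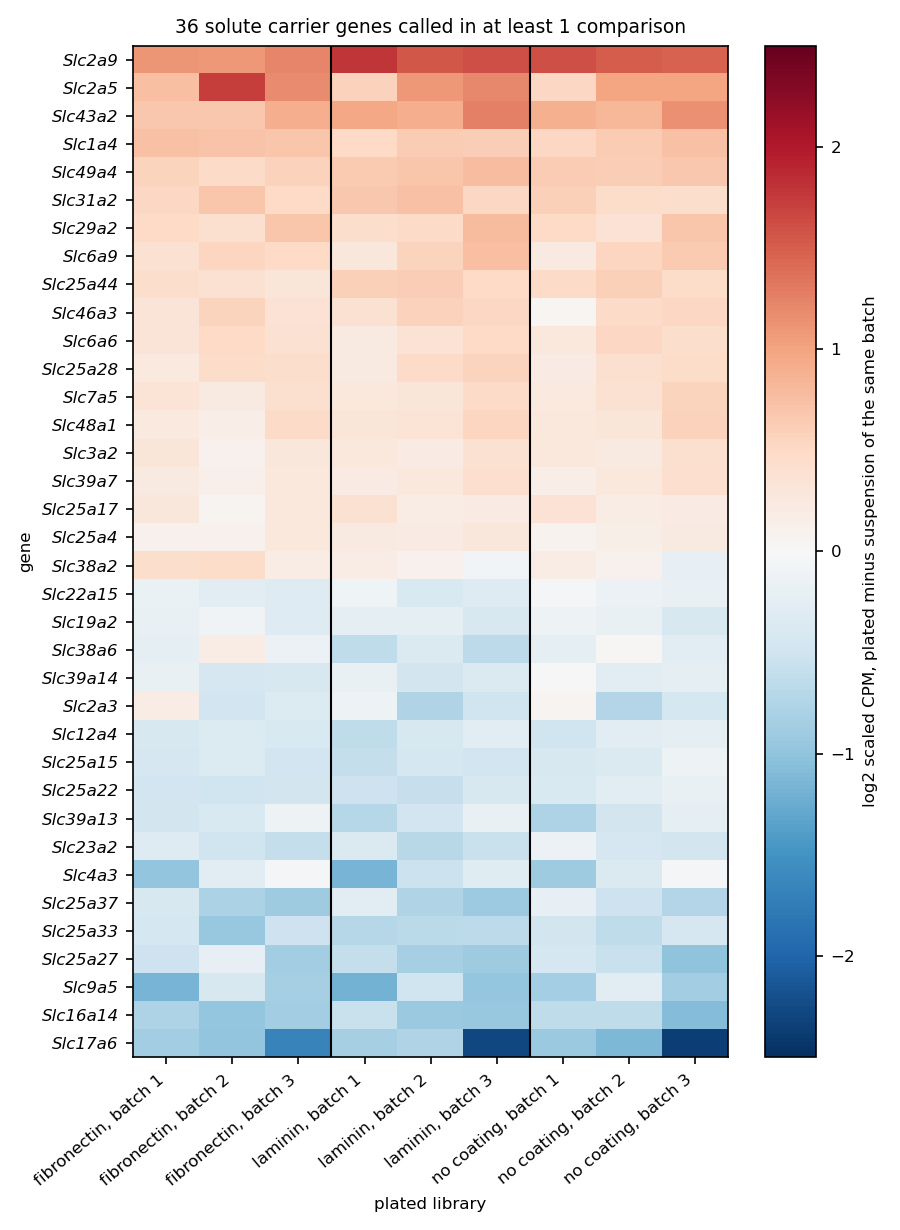
Difference in log2 TMM-scaled CPM (pseudocount 0.5) between each plated library (x axis) and the suspension library of its batch, for the 36 members called at least once (y axis), with red for higher and blue for lower on the surface. Slc2a9 is red in all 9 columns and Slc17a6 blue in all 9, with its deepest blue in batch 3.

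In the 17 carriers of carboxylates and organic ions none rose, and 1 fell on fibronectin, 2 on laminin and 2 without coating. These calls made up 5.88%, 11.8% and 11.8% of the class, against 9.67%, 19.0% and 12.6% of all genes. Only 6.61%, 12.1% and 8.48% of all genes were called higher. With the block, none rose and 6 fell on fibronectin, and 2 rose and 5 fell on laminin and without coating alike, where 28.7%, 43.2% and 38.8% of all genes were called. Slc16a14, an orphan of the monocarboxylate carrier family, had 11.8, 8.84 and 9.83 CPM on fibronectin, 13.8, 9.10 and 9.32 CPM on laminin, 13.0, 11.3 and 8.34 CPM without coating, and 20.6, 17.9 and 18.34 CPM in suspension. It fell by 0.90 ± 0.20 on fibronectin, 0.82 ± 0.19 on laminin and 0.79 ± 0.20 without coating (edgeR adjusted p = 0.0172, 0.0168 and 0.0247), and no library overlapped. Each call ended without plated library 2 or 3 or suspension 1 or 3, and the call without coating also without suspension 2 or batch 3 (adjusted p up to 0.078).

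Slc17a6, known as a vesicular glutamate carrier of neurons, had 11, 16 and 9.41 CPM on fibronectin, 11.2, 19.0 and 6.01 CPM on laminin, 10.5, 14.5 and 5.64 CPM without coating, and 20.4, 32.1 and 30.9 CPM in suspension. Batch 2 was the highest library in every group, and no plated library overlapped suspension. It fell without coating by 1.45 (SE 0.41, edgeR adjusted p = 0.0443), the largest called fall in the family. That call ended without batch 3 (-1.08, adjusted p = 0.0509), no coating 1, no coating 3 or any suspension library (up to 0.13). On fibronectin and laminin it was at -1.19 ± 0.41 and -1.20 ± 0.41 (adjusted p = 0.0891 and 0.0619, and 0.0105 and 0.00593 with the block). Slc22a15, an organic zwitterion carrier in human, averaged 19.7 ± 0.481 CPM on laminin and 24 ± 2.36 CPM in suspension and fell by 0.28 (SE 0.09, adjusted p = 0.048), a call that ended without batch 3, any laminin library, suspension 2 or suspension 3 (adjusted p up to 0.17). Slc16a1, the main lactate carrier, averaged 174 ± 18.5 CPM on fibronectin, 163 ± 5.84 CPM on laminin, 171 ± 18.28 CPM without coating and 183 ± 23.1 CPM in suspension and was not called.

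Of the 3 carriers of osmolytes and neurotransmitters, only Slc6a6, the taurine carrier, was called. This call made up 33.33% of the class on each surface, against 9.67%, 19.0% and 12.6% of all genes. With the block, 1 rose and none fell on each surface, where 28.7%, 43.2% and 38.8% of all genes were called. Slc6a6 had 265, 246 and 249 CPM on fibronectin, 247, 225 and 268 CPM on laminin, 256, 250.5 and 258 CPM without coating, and 213, 174 and 190 CPM in suspension. It rose by 0.40 ± 0.09 on fibronectin, 0.36 ± 0.09 on laminin and 0.40 ± 0.09 without coating (edgeR adjusted p = 0.0168, 0.0179 and 0.0132). Each call ended without suspension 2 or 3, those on fibronectin and laminin also without plated library 3, that on fibronectin without fibronectin 1, and that on laminin without batch 3 (adjusted p up to 0.0862).

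The 13 carriers of nucleotide sugars and acetyl-CoA in the Golgi and endoplasmic reticulum had no call on any surface. Of all genes, 9.67% were called on fibronectin, 19.0% on laminin and 12.6% without coating, and 28.7%, 43.2% and 38.8% with the block. At an unadjusted p under 0.05 there were 0, 1 and 1 of them on fibronectin, on laminin and without coating, and 0, 4 and 3 were called with the block. The share of all genes at that unadjusted cutoff was not counted. Slc35b1, which exchanges ATP for ADP across the endoplasmic reticulum membrane, averaged 112 ± 9.09 CPM on fibronectin, 121 ± 8.71 CPM on laminin, 119 ± 10.1 CPM without coating and 102 ± 4.01 CPM in suspension, and passed only with the block, on laminin (0.24 ± 0.09, edgeR adjusted p = 0.077, and 0.0233 with the block) and without coating (0.22 ± 0.09, adjusted p = 0.129, and 0.042 with the block). Slc35a4 had the highest mean CPM of the class and averaged 163 ± 16.2 CPM on fibronectin, 173 ± 21.8 CPM on laminin, 171 ± 22.6 CPM without coating and 147 ± 5.49 CPM in suspension.

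Neither phosphate carrier was called on fibronectin, on laminin or without coating, where 9.67%, 19.0% and 12.6% of all genes were. Slc20a1, a sodium-phosphate cotransporter, had 909, 899 and 793 CPM on fibronectin, 1042, 974 and 794 CPM on laminin, 1078, 989 and 829 CPM without coating, and 595, 847 and 749.7 CPM in suspension. Batch 1 had the lowest suspension library and the highest plated libraries, and the groups overlapped. It was at 0.25 ± 0.15 on fibronectin, 0.36 ± 0.15 on laminin and 0.40 ± 0.15 without coating (edgeR adjusted p = 0.3, 0.104 and 0.0901, and 0.168, 0.0477 and 0.0345 with the block). Slc20a2 averaged 77.4 ± 9.0 CPM on fibronectin, 72.6 ± 8.3 CPM on laminin, 75.5 ± 7.65 CPM without coating and 74 ± 8.21 CPM in suspension.

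Beside Slc49a4, the 16 members of other or unassigned substrate, Slc4a1ap and Slc7a6os among them, held 1 more call. Calls made up 6.25%, 12.5% and 6.25% of the class, against 9.67%, 19.0% and 12.6% of all genes. With the block, 4 rose and none fell on fibronectin, 4 rose and 2 fell on laminin, and 2 rose and none fell without coating, where 28.7%, 43.2% and 38.8% of all genes were called. Slc46a3, a lysosomal carrier, had 3.41, 3.21 and 3.15 CPM on fibronectin, 3.59, 3.25 and 3.54 CPM on laminin, 2.74, 3.01 and 3.52 CPM without coating, and 2.64, 2.02 and 2.33 CPM in suspension. It rose on laminin by 0.57 ± 0.14 (edgeR adjusted p = 0.0201), a call that ended without batch 3 (adjusted p = 0.106), laminin 1, laminin 3, suspension 2 or suspension 3. On fibronectin it was at 0.48 ± 0.14 and without coating at 0.41 ± 0.14 (adjusted p = 0.0567 and 0.0899, the first 0.0289 with the block). Slc49a3 was at 0.60 ± 0.19 on fibronectin, 0.55 ± 0.19 on laminin and 0.61 ± 0.20 without coating (adjusted p = 0.0757, 0.0683 and 0.0642, and 0.0427, 0.0398 and 0.0341 with the block).

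Between the surfaces no member was called, with or without the block. Of all genes, 0.18% were called between fibronectin and no coating, 0% between laminin and no coating and 0.15% between laminin and fibronectin by edgeR. At an unadjusted p under 0.05 there were 2, 3 and 5 of the 162 members, and DESeq2 called 0 in each. The share of all genes at that unadjusted cutoff was not counted, so these numbers are a description only. The widest gap in Slc2a9 was between laminin and fibronectin, at 0.58 ± 0.13 (edgeR adjusted p = 0.282, and 0.0674 with the block), with laminin higher in 3 of 3 batches. Slc38a2 was lower on laminin than on fibronectin by -0.28 ± 0.09 and higher on fibronectin than without coating by 0.33 ± 0.09 (adjusted p = 0.824 and 0.469, and 0.21 and 0.105 with the block), in 3 of 3 batches each.

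With both the block and batch 3 left out, Slc38a2 was the only member called between fibronectin and no coating (0.29, edgeR adjusted p = 0.0109), where 0.896% of all genes were called. Laminin and no coating had no member called, where 0.279% of all genes were. Laminin and fibronectin differed in 3 members, all lower on laminin, where 1.33% of all genes were called. These were Slc38a2 (-0.29, adjusted p = 0.00886), Slc5a3 (-0.59, adjusted p = 0.0129) and Slc7a1 (-0.34, adjusted p = 0.0205), the last 2 named after their values were seen. Slc5a3, the myo-inositol carrier, had 12.2, 11.1 and 7.58 CPM on laminin against 19.8, 15.3 and 10.2 CPM on fibronectin, so that batch 3 was lowest on both. Slc7a1, the cationic amino acid carrier that takes up arginine and lysine, had 159, 156 and 190.0 CPM on laminin against 198, 203 and 206 CPM on fibronectin. With all 12 libraries and no block, these were at -0.55 ± 0.29 and -0.26 ± 0.09 (adjusted p = 1 each).

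In plain separation of libraries, 22 members had all 9 plated libraries above the 3 suspension libraries, as did 15.5% of all genes, and 19 had them all below, as did 14.9%. The plated libraries of batch 3 lay above the other 6 plated libraries in 22 members, as in 14.9% of all genes, and below them in 25, as in 22%. The members with the lowest ratio of plated batch 3 to plated batches 1 and 2 were Slc4a4 (0.511), Slc17a6 (0.512), Slc4a7 (0.517), Slc16a7 (0.546), Slc25a46 (0.561), Slc35a3 (0.568), Slc30a4 (0.569) and Slc5a3 (0.575). These 8 were chosen for that ratio, which is given as a description. Slc4a7, a sodium-bicarbonate cotransporter, had 92.5, 91.9 and 52.3 CPM on fibronectin, 75.3, 77.2 and 42.1 CPM on laminin, 92.1, 80.0 and 37.3 CPM without coating, and 103, 124 and 109 CPM in suspension. Slc30a4, which loads zinc into vesicles, had 176, 193 and 132 CPM on fibronectin, 183, 189 and 104 CPM on laminin, 195, 183 and 83.3 CPM without coating, and 216, 241 and 239 CPM in suspension. In suspension, batch 3 was not the lowest library in either gene, nor in Slc17a6, Slc25a46 or Slc35a3. It was the lowest in Slc4a4 (7.11, 7.12 and 5.65 CPM), Slc16a7 (7.23, 5.72 and 5.485 CPM) and Slc5a3 (15.45, 14.07 and 13.52 CPM).

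**Figure D4:**
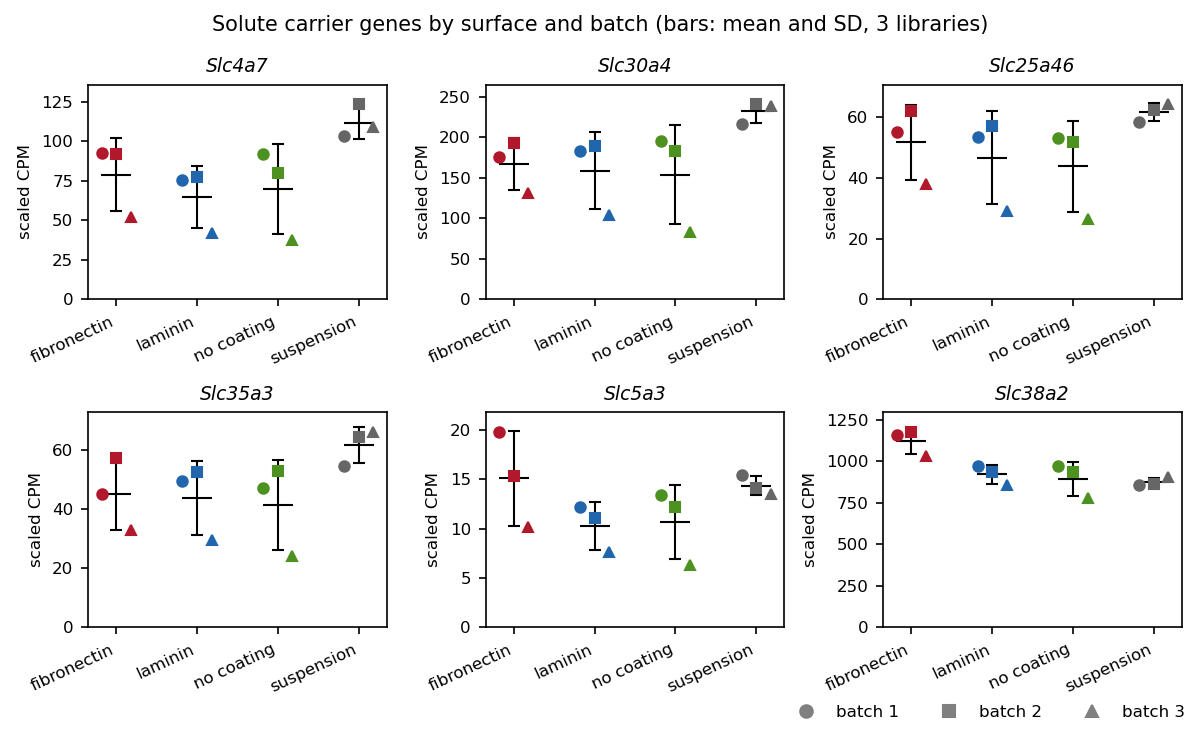
TMM-scaled CPM (y axis, linear, from 0) of 6 solute carrier genes in each of the 12 libraries, by group (x axis), with symbols for batches 1 to 3 and bars for the mean and SD of 3 libraries. In Slc4a7, Slc30a4, Slc25a46, Slc35a3 and Slc5a3 the triangle of batch 3 is the lowest point on each surface, and in Slc38a2 the fibronectin libraries lie highest.

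Genes that work with the carriers were followed as fixed lists. Of 33 tested solute carriers that have other symbols, 1 rose on fibronectin, 5 rose and 1 fell on laminin, and 2 rose without coating, where 9.67% of all genes were called on fibronectin, 19.0% on laminin and 12.6% without coating. Sfxn5, a mitochondrial sideroflexin, rose on fibronectin and laminin, Ctns, the lysosomal cystine carrier, rose on laminin and without coating, and Mpc1, a subunit of the mitochondrial pyruvate carrier, rose on laminin. None of the calls in this list held in every setting. Among the partners of carriers, Bsg, the chaperone of the lactate carriers, averaged 729 ± 49.3 CPM on fibronectin, 771 ± 27.3 CPM on laminin, 737 ± 61.4 CPM without coating and 587 ± 32.9 CPM in suspension. It rose by 0.31 ± 0.08 on fibronectin, 0.39 ± 0.08 on laminin and 0.33 ± 0.08 without coating, and its calls on fibronectin and without coating ended without batch 3 (adjusted p = 0.073 and 0.09), plated library 3, suspension 2 or suspension 3, and the first also without fibronectin 1.

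Of 28 tested regulators of carriers, 4 rose and 1 fell on fibronectin, 6 rose and 3 fell on laminin, and 4 rose and 2 fell without coating, against the same 9.67%, 19.0% and 12.6% of all genes on fibronectin, on laminin and without coating. Atf4, the transcription factor of the amino acid response, averaged 599 ± 45.5 CPM on fibronectin, 574 ± 24.4 CPM on laminin, 593 ± 31.4 CPM without coating and 434.5 ± 13.9 CPM in suspension. It rose by 0.46 ± 0.07 on fibronectin, 0.40 ± 0.07 on laminin and 0.45 ± 0.07 without coating (edgeR adjusted p = 0.0025, 0.0042 and 0.0027). Nupr1, a stress-induced nuclear protein, rose by 1.28 ± 0.16 on fibronectin, 1.24 ± 0.16 on laminin and 1.07 ± 0.16 without coating, while Ddit3, another gene of the same stress response, fell on laminin by 0.38 (SE 0.11, adjusted p = 0.033), a call that ended without batch 3 (adjusted p = 0.084) or without any laminin library, suspension 1 or suspension 3. Sgk1, a kinase that promotes the surface expression of several carriers, averaged 239 ± 8.76 CPM on fibronectin, 138 ± 5.5 CPM on laminin, 128 ± 7.82 CPM without coating and 602 ± 92.0 CPM in suspension, and fell on every surface in every setting. Txnip, which restrains glucose carriers, averaged 56.8 ± 6.23 CPM on fibronectin, 63.4 ± 8.15 CPM on laminin, 56.2 ± 10.2 CPM without coating and 32.9 ± 7.68 CPM in suspension, and rose by 0.79 ± 0.18 on fibronectin, 0.95 ± 0.18 on laminin and 0.77 ± 0.18 without coating (adjusted p = 0.021, 0.0062 and 0.02). Its laminin call held in every setting, and the other 2 ended without plated library 1, suspension 2 or suspension 3 (adjusted p up to 0.092). Wnk4, a kinase, was called higher on all 3 surfaces, in calls that ended without suspension 2 or suspension 3 (adjusted p up to 0.095). Oxsr1, which kinases of that family activate to control sodium-chloride and potassium-chloride cotransporters, fell by 0.45 ± 0.09 on laminin and without coating (adjusted p = 0.0087 and 0.01).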

How the data were processed

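RNA sequencing of 12 libraries was deposited as 1 table of raw read counts per library, keyed by Entrez identifier; per the submitters' processing notes the authors used rn4, and the sources used here name no aligner, counting tool or strand setting. Symbols came from the RefSeq table of GRCr8, which matched 16761 of 16924 identifiers. Counts were tested with edgeR 4.0.16 (R 4.3.3): filterByExpr on the 4 groups (10020 genes, all 162 members among them), TMM, glmQLFit and glmQLFTest on all 12 libraries without a batch term, Benjamini-Hochberg adjustment and a threshold of 0.05. Fold changes are given ± SE, levels as mean ± SD. DESeq2 1.42.0, library size only, no filter, the 2 groups alone, leave-one-out fits, the replicate block and batch 3 left out were alternatives. Of these, only the fits with the block held a batch term.

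The labels give libraries of a number the same batch, so the numbers pair them. Deviations from group means correlated across genes with a median of 0.409 over 18 same-batch pairs and -0.124 over 36 other pairs. Such deviations cancel within a group, so the negative value is partly built in. The lowest value was 0.514 over the 9 same-batch pairs of plated libraries. Over all 18 it was 0.036, in a pair of a plated and a suspension library. Named genes were the 6 largest called rises and falls on each surface, the 4 largest between surfaces, 3 genes with the smallest p and 1 with the highest level per class, and the heteromeric amino acid exchangers. Of the genes these rules gave, Slc66a3, Slc6a2 and Slc6a8 were not described, and Slc35a3 only among the batch 3 genes. None of these was called. Outside these rules, the called members Slc6a9, Slc25a15, Slc25a17, Slc25a28, Slc39a7 and Slc39a14 were also described. The members and lists were chosen with earlier results of these data known. Slc4a1ap and Slc49a4 were moved to the unassigned class once symbols, not values, were seen. A gene of the partner list is not reported here.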

Additional observations from a re-analysis of the deposited data

How the results depend on the processing

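With the replicate block, the members called relative to suspension numbered 44 on fibronectin, 70 on laminin and 59 without coating, and 47, 60 and 45 with batch 3 also left out. Without batch 3 and without the block there were 17, 26 and 14. With only the libraries of the 2 groups compared, 7 members were called without coating. Leaving out 1 library at a time gave 10 to 17 members on fibronectin, 16 to 29 on laminin and 7 to 19 without coating. Between surfaces the count stayed at 0 in every setting but the block with batch 3 left out, which gave 1 for fibronectin against no coating and 3 for laminin against fibronectin. DESeq2, library size alone and no filter on low counts kept each total count within 1.5 times, but with library size alone 8 members rose and 9 fell without coating, in place of 14 and 8. Among the genes named by the rules above, no difference from suspension that exceeded its SE changed direction in any setting. Differences between surfaces, and genes described outside those rules, were not part of that check. The causes of the lost calls were not tested. A minimum mean of 1 or 5 CPM would give 174 or 143 members.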
